A study of Mus musculus with 9 samples.

Results

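Small heat shock proteins are chaperones that hold unfolding proteins in a refoldable state without using ATP, and BAG3 is a co-chaperone that links some of them to HSC70 and to autophagy. The genes described here are Hspb1, Hspb2, Hspb3, Hspb6, Hspb7, Hspb8, Cryab and Bag3, taken as the rows of the deposited table with those symbols. All 8 were found, each on 1 row, among 53715 gene IDs.

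RNA was sequenced from mouse primary myoblasts, muscle precursor cells grown from muscle, at passage 1. Every library came from the strain C57BL/10ScSn-Dmdmdx/J, which lacks dystrophin through a mutation in Dmd, so no library has a dystrophin-sufficient control. The cells were given 0.2 mM glycine (3 libraries) or 0.8 mM glycine (6 libraries), with no other treatment, age or sex in the labels. Values are TPM, reads per gene scaled by gene length and to a common sum per library, so the number of reads behind a value is unknown. Nothing in the labels ties the libraries of a group to different cultures or different animals. A p-value here therefore speaks of the spread among these libraries, and that spread may be technical. Each glycine level has its own library series in the labels, and series and glycine cannot be told apart.

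In muscle the small heat shock proteins share an alpha-crystallin domain, form oligomers with one another and bind the cytoskeleton, in particular actin, desmin, titin and filamin. BAG3 and HSPB8 form a complex with HSC70 and the ubiquitin ligase CHIP that removes damaged filamin from the Z-disc, the structure that anchors actin filaments in the sarcomere. Mutations in CRYAB, BAG3, HSPB8 and desmin cause muscle or motor nerve disease, and HSF1 is the transcription factor that drives many chaperone genes under heat or proteotoxic stress.

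All 8 transcripts were higher at 0.8 mM than at 0.2 mM glycine, and in each the lowest library at 0.8 mM lay above the highest at 0.2 mM. Hspb1 and Cryab were the abundant members, Hspb2 and Hspb8 intermediate, Bag3 and Hspb3 low, and Hspb7 and Hspb6 close to the lower limit of use. The 8 were tested with limma on log2(TPM + 1) over the 10049 genes with at least 1 TPM in at least 3 libraries, with a Benjamini-Hochberg adjusted p under 0.05 as the threshold. Below, "rose" and "fell" are used for genes that passed, for the step from 0.2 to 0.8 mM. Of the 6 members with at least 1 TPM in every library, Hspb1, Hspb2, Hspb3, Hspb8, Cryab and Bag3, 6 rose and 0 fell. Of all tested genes 26.6% passed, 16.7% as genes that rose and 9.81% as genes that fell. Hspb6 and Hspb7 rose as well, but they entered the test only through the 0.8 mM libraries, since 0 of the 3 libraries at 0.2 mM reached 1 TPM, and they are not counted as support. The groups were free of overlap for 28.2% of all tested genes, and for 17.6% with 0.8 mM as the higher level.

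**Figure D1:**
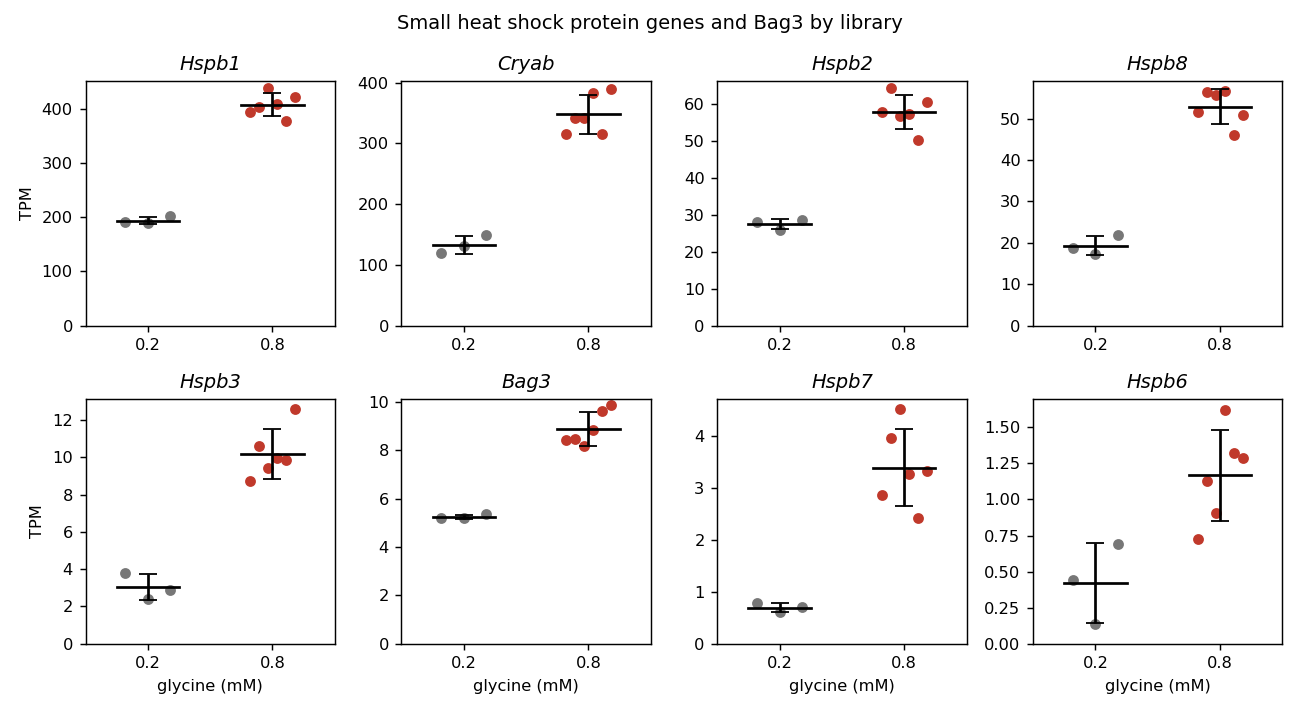
Each panel plots the TPM of 1 member by library against glycine, with grey points for 0.2 mM (n = 3) and red for 0.8 mM (n = 6), a zero-based axis and black bars for mean and SD, in order of the level at 0.8 mM. No red point lies at or below a grey point in any of the 8 panels, and the closest approach is in Hspb6, from 0.690 TPM to 0.729 TPM.

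Hspb1, which encodes the actin-binding HSP25 of the mouse, was the most abundant member. It lies on chromosome 5 from 135887919 to 135889563 on the plus strand of GRCm38 (ENSMUSG00000004951.10). Its level was 191, 189 and 202 TPM in the libraries at 0.2 mM, and ran from 378 over a median of 406.5 to 439 TPM at 0.8 mM. The spread was small in both groups, with a coefficient of variation of 3.63% and 5.19%. Hspb1 rose by 1.07 ± 0.05 on the log2 scale (SE, limma adjusted p = 1.83e-07), with a 95% interval from 0.95 to 1.19.

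Cryab encodes alphaB-crystallin, which binds desmin and titin, and lies on chromosome 9 from 50751325 to 50756636 on the plus strand (ENSMUSG00000032060.10). It was at 119, 131 and 149 TPM at 0.2 mM and between 315 and 389 TPM, with a median of 341.5 TPM, at 0.8 mM. It rose by 1.38 ± 0.09 (SE, limma adjusted p = 1.09e-06), with an interval from 1.18 to 1.58. That interval and that of Hspb1 overlap only at their ends. At 0.8 mM the ranges of Hspb1 and Cryab overlapped across libraries, but Hspb1 was the higher in each of the 6 libraries.

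Hspb2, whose product binds the myotonic dystrophy protein kinase DMPK, is the neighbour of Cryab on the opposite strand (chromosome 9, 50751078 to 50752354, ENSMUSG00000038086.4). It was at 27.9, 25.9 and 28.6 TPM at 0.2 mM and between 50.3 and 64.2 TPM at 0.8 mM, with a median of 57.5 TPM. It rose by 1.04 ± 0.08 (SE, limma adjusted p = 4.39e-06). In GENCODE M21, 2 of the 6 Cryab transcripts start within Hspb2, and the nearest Cryab start outside it lies 613 bases from the start of the principal Hspb2 transcript. Exons of the genes share 252 bases, which are 30.2% of the exon bases of Hspb2 and 17% of those of Cryab. The use of strand in counting is not given in the sources used here, so reads in the shared bases cannot be assigned to one gene, and the levels of both are uncertain to that extent.

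Hspb8 and Bag3 encode the partners of the filamin-clearing complex. Hspb8 (chromosome 5, 116408491 to 116422864, minus strand, ENSMUSG00000041548.4) was at 18.8, 17.3 and 21.9 TPM at 0.2 mM and between 46.1 and 56.7 TPM at 0.8 mM, with a median of 53.6 TPM. It rose by 1.41 ± 0.09 (SE, limma adjusted p = 1.38e-06), with an interval from 1.20 to 1.62. Bag3 (chromosome 7, 128523616 to 128546981, plus strand, ENSMUSG00000030847.8) was at 5.19, 5.20 and 5.35 TPM at 0.2 mM and between 8.17 and 9.87 TPM at 0.8 mM, with a median of 8.63 TPM. Bag3 rose by 0.66 ± 0.10 (SE, limma adjusted p = 0.000426), with an interval from 0.45 to 0.87 that does not reach that of Hspb8. Both partners were thus higher in each library at 0.8 mM, and the step was larger for Hspb8.

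Hspb3, a small heat shock protein found mainly in muscle, where it pairs with HSPB2, lies on chromosome 13 from 113662896 to 113663676 on the minus strand (ENSMUSG00000051456.4). It was at 3.78, 2.42 and 2.91 TPM at 0.2 mM and between 8.70 and 12.6 TPM at 0.8 mM, with a median of 9.90 TPM. Its step of 1.48 ± 0.14 in log2 (SE, limma adjusted p = 1.82e-05) had an interval from 1.17 to 1.78, which overlaps those of Hspb1, Hspb2, Hspb7, Hspb8 and Cryab. At 0.2 mM Bag3 lay above Hspb3 in each of 3 libraries, and at 0.8 mM Hspb3 lay above Bag3 in each of 6.

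Hspb7, which binds filamin and is known from heart and skeletal muscle, lies on chromosome 4 from 141420779 to 141425311 on the plus strand (ENSMUSG00000006221.7). It was at 0.778, 0.610 and 0.701 TPM at 0.2 mM and between 2.42 and 4.51 TPM at 0.8 mM, with a median of 3.29 TPM. Hspb7 had the largest ratio of mean TPM among the members, 4.87. On the log2(TPM + 1) scale, which understates the change of low genes, it rose by 1.36 ± 0.16 (SE, limma adjusted p = 0.000104), and by 2.11 with a pseudocount of 0.1.

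Hspb6, the target of protein kinase A known as HSP20, lies on chromosome 7 from 30552178 to 30555443 on the plus strand (ENSMUSG00000036854.14). It was at 0.444, 0.134 and 0.690 TPM at 0.2 mM and between 0.729 and 1.62 TPM at 0.8 mM, with a median of 1.21 TPM. Its call was the weakest, at 0.61 ± 0.18 on the log2 scale (SE, limma adjusted p = 0.0288). The call was lost without 0.2 mM replicate 1 (limma adjusted p = 0.0708), without 0.2 mM replicate 2 (0.138) and with no filter on low values (0.0646), over a range from 0.0181 to 0.138 in 19 alternatives. Its exons share 122 bases with Proser3 on the opposite strand, 5.31% of its exon bases.

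The other members kept their call under every alternative tried in which they were tested. Across genes the split of calls depended on scaling, with 1683 that rose and 986 that fell as deposited, 1413 and 1285 with median-ratio scaling and 1364 and 1340 with quantile normalization. The log2 fold changes of the 8 members stayed above 0 under those scalings. Their lowest values with quantile normalization were 0.56 for Hspb6, 0.58 for Bag3 and 0.83 for Hspb1. For comparison, the median over all tested genes was 0.06 as deposited and the median over the 8 members 1.21, which includes the 2 members that the filter admitted through their higher group.

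**Figure D2:**
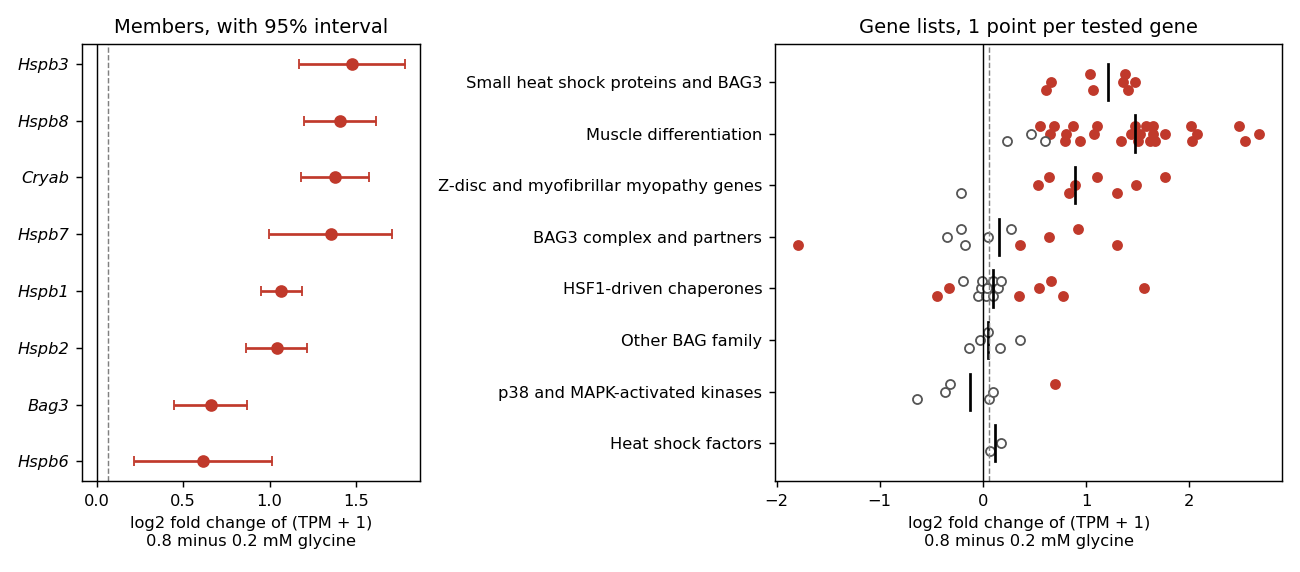
Left, the log2 fold change of (TPM + 1), 0.8 minus 0.2 mM glycine, of each member with its 95% interval from limma, from Hspb6 at 0.61 to Hspb3 at 1.48. Right, the same measure for every tested gene of 8 lists, with genes that passed in red, the others as open circles, the median of each list as a black bar and the median of all tested genes (0.06) as a dashed line. The HSF1-driven chaperones spread to both sides of the dashed line, from -0.44 to 1.56 with a median of 0.10, the other BAG genes hold no red point, and the muscle genes lie to its right, from 0.23 to 2.68.

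Promoter sequence was taken from RefSeq (GRCm38.p6) for the 250 bases before each annotated start, and 6 of the 8 members matched, with 7 starts because Hspb6 has 2. The search used the inverted units of the heat shock element, written GAANNTTC or TTCNNGAA, the E-box CAGCTG bound by MyoD, the amino acid response element TGATGNAA, and the MEF2 and CArG boxes by name, on both strands. The 4 promoters below are those of the most abundant member, of the muscle-restricted Hspb3, and of the complex partners Hspb8 and Bag3. They are printed 5′ to 3′ in the direction of the gene, with matches to these motifs in capitals.
Hspb1, chr5:135887669-135887918, plus strand: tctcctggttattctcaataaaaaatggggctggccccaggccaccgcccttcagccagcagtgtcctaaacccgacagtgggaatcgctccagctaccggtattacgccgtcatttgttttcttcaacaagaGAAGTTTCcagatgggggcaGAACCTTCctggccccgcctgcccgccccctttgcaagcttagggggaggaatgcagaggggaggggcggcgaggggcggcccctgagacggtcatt
Hspb3, chr13:113663677-113663926, minus strand: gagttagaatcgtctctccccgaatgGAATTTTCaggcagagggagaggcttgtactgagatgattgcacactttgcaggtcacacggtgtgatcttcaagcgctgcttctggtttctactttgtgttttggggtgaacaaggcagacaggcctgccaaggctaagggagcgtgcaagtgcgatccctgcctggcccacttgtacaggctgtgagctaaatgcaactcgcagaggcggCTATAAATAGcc
Hspb8, chr5:116422865-116423114, minus strand: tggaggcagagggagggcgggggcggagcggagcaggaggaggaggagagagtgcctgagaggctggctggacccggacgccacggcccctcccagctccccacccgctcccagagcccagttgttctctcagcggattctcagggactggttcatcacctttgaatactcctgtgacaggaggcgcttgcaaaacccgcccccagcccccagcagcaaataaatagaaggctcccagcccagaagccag
Bag3, chr7:128523333-128523582, plus strand: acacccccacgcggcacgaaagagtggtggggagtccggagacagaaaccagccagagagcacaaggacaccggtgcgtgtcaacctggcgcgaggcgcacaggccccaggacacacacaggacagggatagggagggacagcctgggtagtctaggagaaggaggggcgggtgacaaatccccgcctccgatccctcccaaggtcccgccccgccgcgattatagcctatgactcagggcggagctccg

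Hspb1 held 2 matches to GAANNTTC, from 117 to 110 and from 97 to 90 bases before the start. Hspb3 held 1, from 224 to 217 bases before the start, and a MEF2 box from 12 to 3 bases before it that overlaps a match to TATAAA. The second start of Hspb6 held 1 match to GAANNTTC, from 120 to 113 bases before it. Over all 32851 promoter windows of the same length, 6.69% held GAANNTTC, 7.17% TTCNNGAA, 0.508% the MEF2 box, 1.47% the CArG box, 12.4% TATAAA, 3.45% TGATGNAA and 13.0% CAGCTG. In the windows of Hspb7, Hspb8 and Bag3 and at the first start of Hspb6, 0 matches to the motifs in capitals were found. The general E-box CANNTG, not in capitals, is held by 66.2% of all windows and was found in those of Hspb1, Hspb3, Hspb7 and Hspb8. A match is a string of letters in this window, and the data hold no measure of binding.

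Summed over the 7 small heat shock protein genes, TPM was 361.7, 366.3 and 405.6 at 0.2 mM and ran from 803.5 to 939.2 at 0.8 mM, a ratio of means of 2.33. Since TPM is per length, the shares of this sum compare the genes with one another. Hspb1 held 51.4 ± 1.48% of it at 0.2 mM and 46.3 ± 1.54% at 0.8 mM, and Cryab 35.2 ± 1.93% and 39.4 ± 1.70% (SD, n = 3 and n = 6). Those ranges did not overlap, with Hspb1 between 49.8% and 52.7% at 0.2 mM and between 44.5% and 48.4% at 0.8 mM. Hspb2 held 7.29 ± 0.375% and 6.56 ± 0.451%, Hspb8 5.10 ± 0.351% and 6.01 ± 0.365%, and Hspb3 0.808 ± 0.207% and 1.16 ± 0.121%. Hspb7 and Hspb6 held the smallest shares, 0.383 ± 0.0736% and 0.132 ± 0.0346% at 0.8 mM. The 7 genes thus had 1 order of abundance at both glycine levels, while the share of Hspb1 was lower and that of Cryab higher at 0.8 mM.

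**Figure D3:**
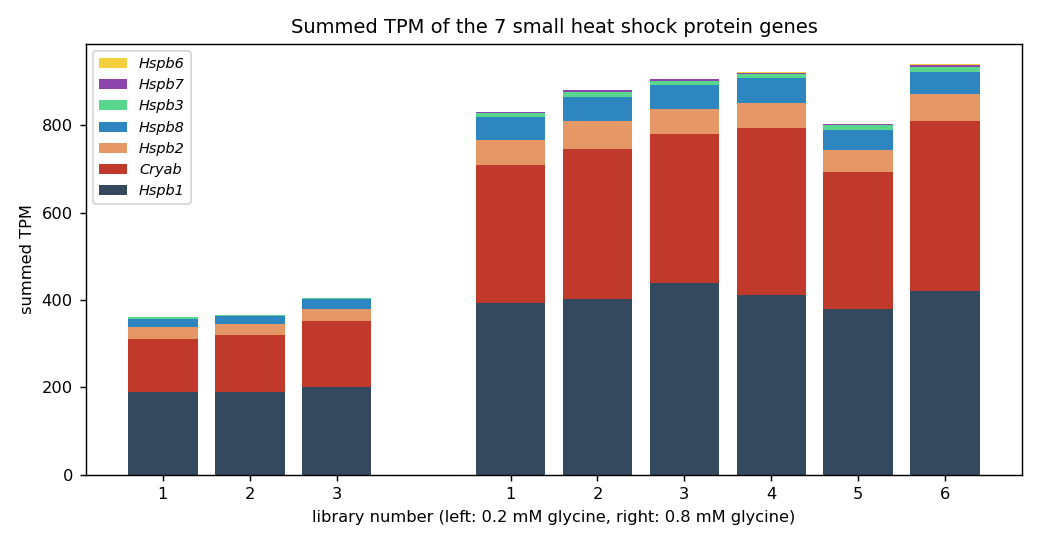
Summed TPM of the 7 small heat shock protein genes in each library, with 1 segment per gene and the axis starting at 0. The bars of the 3 libraries at 0.2 mM end between 361.7 and 405.6 and those of the 6 at 0.8 mM between 803.5 and 939.2, and Hspb1 and Cryab fill most of each bar.

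Among the 6 libraries at 0.8 mM, replicate 5 was the lowest for 5 of the 8 members, namely Hspb1, Hspb2, Hspb7, Hspb8 and, by under 1 TPM, Cryab. It was also the lowest for 19 of 29 genes of muscle differentiation. It was not the lowest for Bag3, Hspb3 or Hspb6, and for Bag3 it was the second highest library at 9.62 TPM. Whether the members and the muscle genes vary together between libraries for one reason was not tested.

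Because the genes that move with differentiation also rose, each member was set against 29 muscle differentiation genes within each library. Of these 29 genes, 26 rose and 0 fell, with 3 short of the threshold, beside 16.7% and 9.81% of all tested genes. Of the 29, 2 entered the test only through the 0.8 mM libraries. The 4 with the smallest p, Actc1, Tnnt2, Acta1 and Mylpf, had log2 fold changes of 2.54, 2.02, 2.02 and 1.43 beside a list median of 1.48. The mean of log2(TPM + 1) over the list was 5.40 at 0.2 mM and 6.78 at 0.8 mM, a difference of 1.37. A member's value was its log2(TPM + 1) minus that mean, compared by a two-sided exact permutation test over the 84 ways to assign 3 of 9 libraries to 0.2 mM, whose smallest p is 0.0238, with adjustment over the 8 members.

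Relative to the muscle list Cryab was at 1.66 ± 0.106 and 1.67 ± 0.0882 (SD, n = 3 and n = 6, exact permutation p = 0.881, adjusted p = 0.881), so its step differed from that of the list by 0.01. Hspb8 was at -1.06 ± 0.0303 and -1.03 ± 0.0697 (exact permutation p = 0.452, adjusted p = 0.635) and Hspb3 at -3.40 ± 0.257 and -3.30 ± 0.152 (exact permutation p = 0.476, adjusted p = 0.635). The libraries of the groups overlapped for these 3, and a p that misses the threshold does not show that they move alike. Hspb1 went from 2.20 ± 0.0861 to 1.90 ± 0.0353, a difference of -0.30 (exact permutation p = 0.0238, adjusted p = 0.0476). Hspb2 differed by -0.33 and Bag3 by -0.71, from -2.76 ± 0.117 to -3.47 ± 0.151, with the same p and adjusted p (0.0238 and 0.0476, exact permutation). These 3 rose by less than the list, with no overlap between groups in any of them. Their adjusted p rests on Hspb6 also reaching the smallest p (0.0238, exact permutation). Hspb6 entered the test across genes only through the 0.8 mM libraries, and its value here depended on the pseudocount.

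The values of the lowest members depended on the pseudocount. Hspb6 differed from the list by -0.76 with a pseudocount of 1 and by -0.071 with 0.1. Hspb7 differed by -0.02 (exact permutation p = 0.881, adjusted p = 0.881) and by 0.63. With 0.1 the difference of Hspb7 passed (exact permutation, adjusted p = 0.0476). Hspb7 entered the test across genes only through the 0.8 mM libraries, so that pass is not counted as support. Against desmin alone, which rose by 1.76, Cryab and Hspb8 also had a smaller step, by -0.38 and -0.35 (exact permutation, adjusted p = 0.0317).

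**Figure D4:**
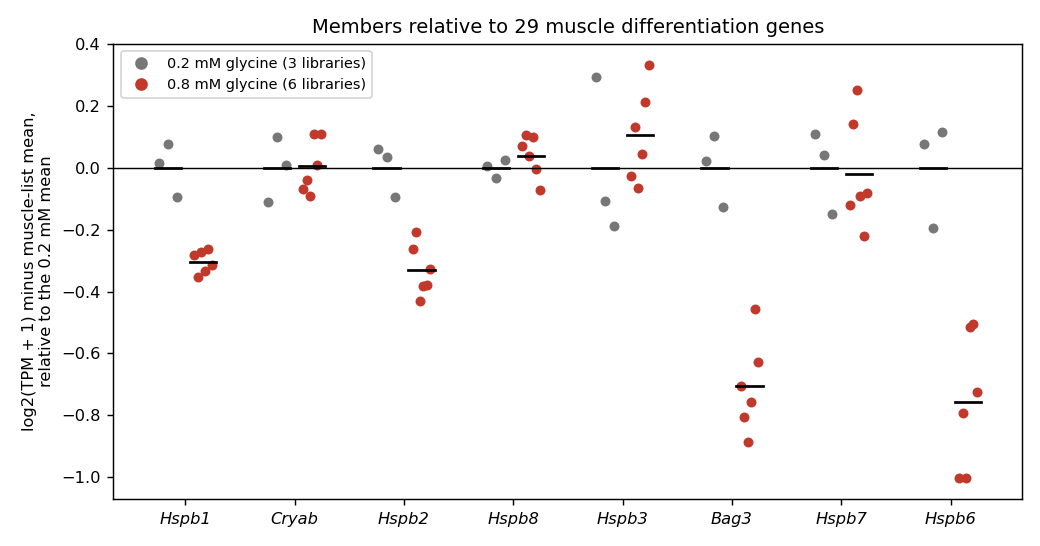
For each member, log2(TPM + 1) minus the mean over 29 muscle differentiation genes in the same library, shown as the distance from the mean at 0.2 mM, with grey points for 0.2 mM (n = 3), red for 0.8 mM (n = 6) and black bars for group means. Cryab, Hspb8, Hspb3 and Hspb7 scatter around 0, while the means of Hspb1 and Hspb2 lie at -0.30 and -0.33 and those of Bag3 and Hspb6 at -0.71 and -0.76.

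Ratios of TPM are given for 3 pairs of members, as a description with no test, since the pairs were chosen after their values were seen. The ratio of Hspb8 to Bag3 was 3.62, 3.32 and 4.09 at 0.2 mM and between 4.79 and 6.81 at 0.8 mM, with a median of 6.28. That of Cryab to Hspb2 was 4.27, 5.05 and 5.20 at 0.2 mM and between 5.33 and 6.70 at 0.8 mM, and that of Hspb3 to Hspb2 was 0.135, 0.0933 and 0.102 and between 0.150 and 0.209. In log2 the differences between the groups were 0.70, 0.32 and 0.69. Cryab and Hspb2 share exon bases whose reads cannot be assigned, so both ratios with Hspb2 are uncertain to that extent. The ratios of the groups did not overlap in these pairs, which the choice of pairs had in view.

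By the root-mean-square distance between centred log2(TPM + 1) profiles over the 9 libraries, the most alike members were Hspb1 and Hspb2 (0.0837), then Hspb8 and Cryab (0.115). The nearest other genes with a mean of at least 5 TPM were, for Cryab, Tmem8c (0.0681), Ifitm2 and Gng2. Tmem8c encodes myomaker, a membrane protein of myoblast fusion. For Hspb8 they were Anxa6 (0.0585), Tmem8c and Myl1, and for Hspb7 Tubb2b (0.131), Anxa6 and Myl1, a myosin light chain. For Hspb1 they were Svbp (0.0451), Slc16a3, a lactate carrier, and Erp29, for Hspb2 Pdia6 (0.0493), a protein disulfide isomerase, Atp5a1 and Lmna, and for Hspb3 the intermediate filament gene Nes (0.127), H19 and Fkbp7. For Bag3 they were Cox6b1 (0.0707), Nfic and Mbd3, and for Hspb6 Myo10 (0.108), Pdgfra and Sept4. Each distance takes in the step between groups, so genes with a similar step lie close.

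The other genes listed as the BAG3 complex and its partners did not move as one. Among them Hspa8 and Stub1 encode HSC70 and CHIP of the complex, and the others were listed as partners, Dmpk through HSPB2. Of 11 listed and 10 tested, 4 rose, 1 fell and 5 did not pass, beside 16.7% and 9.81% of all tested genes that rose and fell, and the median log2 fold change was 0.16 against 0.06 for all genes. Sqstm1, the autophagy receptor p62, fell in every library, from between 308 and 312 TPM to between 84.4 and 96.2 TPM, a change of -1.79 (limma adjusted p = 1.53e-08). Dmpk, the kinase bound by HSPB2, rose from 7.32 ± 1.22 to 19.5 ± 2.73 TPM, and Synpo2, which links BAG3 to the Z-disc, from 1.96 ± 0.143 to 4.69 ± 1.06 TPM. Hspa8, which encodes HSC70, rose from 338 ± 8.34 to 436 ± 35.7 TPM (limma adjusted p = 0.00273), a call that was lost with quantile normalization (0.504). Flnc, the filamin client, named after its values were seen, rose by 0.64 (limma adjusted p = 0.0039). Its call was lost with libraries 1 to 3 of each group and the library number as a block (0.059). Stub1, which encodes CHIP, had 39.8 ± 4.24 TPM at 0.2 mM and 48.1 ± 3.90 TPM at 0.8 mM, short of the threshold (limma adjusted p = 0.0515), though it passed upward in 5 of 22 alternatives. It was named after its values were seen.

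None of the other BAG genes passed, with 0 of 5 that rose or fell (limma) and 0 at an unadjusted p under 0.05. Of all tested genes 26.6% passed, and a list of 5 is too short to tell from that share. Bag1 was at 40.8 ± 2.50 and 46.4 ± 7.17 TPM and Bag2 at 3.42 ± 0.778 and 4.92 ± 1.94 TPM. Bag4, Bag5 and Bag6 had log2 fold changes of 0.05, -0.14 and -0.02. The lens and testis members of the small heat shock family were not tested, with Cryaa, Hspb9 and Odf1 below 1 TPM in every library and Odf1 listed at 0 in all.

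Chaperones driven by HSF1 were mixed. Of the 17 listed, 5 rose and 2 fell, the other 10 missed the threshold, and the median was 0.10. The shares of all tested genes that rose and fell were 16.7% and 9.81%. Hspa4l, a relative of HSP110, rose from 2.70 ± 1.48 to 9.50 ± 1.56 TPM and Hsp90aa1 from 156 ± 17.9 to 227 ± 15.9 TPM. Of the inducible HSP70 genes, Hspa1b rose from 0.255 ± 0.128 to 1.16 ± 0.278 TPM and Hspa1a from 0.414 ± 0.118 to 1.27 ± 0.495 TPM. They are near-identical copies whose reads may be divided between them, both entered the test only through the 0.8 mM libraries, and Hspa1a lost its call without any 1 of the 3 libraries at 0.2 mM (up to 0.0994 without replicate 3). Hspe1 and Hspd1, which encode the mitochondrial co-chaperonin and chaperonin, fell by 0.33 and 0.44 on the log2 scale, Hspd1 not with the library number as a block (0.0551). Hsp90ab1 rose by 0.35 (limma adjusted p = 0.0113), but not with median-ratio scaling or quantile normalization (up to 0.862), nor in libraries 1 to 3 of each group. Hspa1a, Hspd1, Hsp90ab1, Dnajb1 and Hsph1 were named after their values were seen. With either of those scalings 4 of the 17 rose and 3 fell. Dnajb1 and Hsph1, co-chaperones induced by heat, were at 5.11 ± 0.403 and 5.78 ± 0.326 TPM and at 6.11 ± 1.40 and 6.11 ± 1.46 TPM and did not pass.

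Of the heat shock factor transcripts, 0 of 2 tested passed (limma), and 0 at an unadjusted p under 0.05. Of all tested genes 26.6% passed, and a list of 2 is too short to tell from that share. Hsf1 was at 4.07 ± 1.15 and 4.80 ± 1.64 TPM (limma adjusted p = 0.646) and Hsf2 at 2.23 ± 0.481 and 2.44 ± 0.812 TPM (limma adjusted p = 0.836), with Hsf4 below 1 TPM. Of 7 p38 and MAPK-activated kinases, which act upstream of HSPB1 phosphorylation, 1 of 6 tested rose, 0 fell and 5 did not pass, which is near the 16.7% of all tested genes that rose. The 1 that rose was Mapk12, the muscle p38 gamma, from 1.60 ± 0.550 to 3.18 ± 0.476 TPM. Mapkapk2, the kinase of HSPB1, was at 7.83 ± 0.902 and 6.08 ± 0.629 TPM (limma adjusted p = 0.0628). It passed downward with median-ratio scaling, with quantile normalization and without ribosomal RNA genes.

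Genes of the Z-disc and of myofibrillar myopathy, the disease group that holds Cryab and Bag3, mostly rose. Of 9 tested, 8 rose, 0 fell and 1, Dnajb6, did not pass, with a median of 0.90, against the 16.7% of all tested genes that rose. Flnc, which rose, and Dnajb6 are also in the list of the BAG3 complex and its partners. Des, which is also in the muscle list, rose from 104 ± 12.8 to 356 ± 30.5 TPM, Ttn, the titin gene, from 9.76 ± 0.643 to 22.3 ± 2.30 TPM, Ldb3 from 3.46 ± 0.461 to 11.6 ± 2.42 TPM and Fhl1 from 2.63 ± 0.171 to 8.04 ± 1.65 TPM. Dnajb6, a co-chaperone that works with BAG3, was at 80.0 ± 6.27 and 69.9 ± 15.3 TPM. Myot stayed below 1 TPM in every library, and both it and Dnajb6 were named after their values were seen.

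Markers of other cells moved as well, and their part in the members' values was not tested. In bulk RNA, fewer cells of a type and less RNA per cell cannot be told apart. The counts below stand beside 16.7% of all tested genes that rose and 9.81% that fell. The myoblast markers rose for 5 of 8 and fell for 1. Their summed levels were 204.5 to 249.9 TPM at 0.2 mM and 466.2 to 566.1 TPM at 0.8 mM. The largest part of each sum was Des (104 ± 12.8 and 356 ± 30.5 TPM). Des and Myod1 both rose and are also in the muscle list, so this sum is not separate from that list. The marker genes given by name were chosen after their values were seen. Pax7, the satellite cell factor, averaged 0.712 TPM at 0.2 mM and 1.20 TPM at 0.8 mM and did not pass (limma adjusted p = 0.13). Its groups overlapped, and it entered the test only through the 0.8 mM libraries. The fibroblast and fibro-adipogenic markers rose for 6 of 7, with sums of 2237 to 2613 and 2618 to 3181 TPM. Most of each sum was Dcn, which did not pass (1878 ± 184 and 1689 ± 209 TPM). The macrophage and leukocyte markers rose for 3 and fell for 1 of 7 tested of 8, with sums of 784.1 to 857.4 and 972.9 to 1355 TPM. Lyz2 rose from 588 ± 30.6 to 1013 ± 153 TPM, and Cd68 fell from 182 ± 13.6 to 57.6 ± 2.38 TPM. Cd14 and Itgam also rose, Itgam after entering the test only through the 0.8 mM libraries, and Ptprc, Adgre1 and Csf1r did not pass. Smooth muscle also makes Hspb6, Cryab and Hspb1, and of its 7 markers with those of pericytes 3 were tested and 2 rose, with sums of 9.89 to 11.5 and 22.6 to 29.8 TPM. Smtn rose from 5.93 ± 0.576 to 19.1 ± 2.67 TPM and Cspg4 from 0.389 ± 0.0628 to 1.66 ± 0.341 TPM, while Pdgfrb did not pass. Cspg4 entered the test only through the 0.8 mM libraries. Of the untested genes, Myh11 and Cnn1, which define smooth muscle, averaged 0.0108 and 0.0422 TPM at 0.8 mM. Rgs5 and Kcnj8 averaged 0.0849 and 0.155 TPM at 0.2 mM and 0.306 and 0.543 TPM at 0.8 mM. Of 5 endothelial markers 2 were tested and rose (sums of 2.45 to 2.74 and 4.05 to 6.68 TPM), but both entered the test only through the 0.8 mM libraries. Of 4 adipocyte markers only Fabp4 was tested and rose (sums of 12.8 to 14.7 and 22.3 to 34.5 TPM). Nearly all of each sum was Fabp4, at 13.7 ± 0.901 and 29.5 ± 4.36 TPM. Adipoq and Plin1 averaged 0.0407 and 0.128 TPM at 0.2 mM and were listed at 0 at 0.8 mM, and Lep was at 0 in all libraries. The sums therefore do not speak for adipocyte markers as a group.

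Between 8979 and 9457 genes reached 1 TPM per library, ribosomal RNA genes held 18.7% to 24.7% of TPM, and no library stood apart, with Spearman correlations across genes of 0.920 to 0.939 within groups and 0.879 to 0.888 between them. No pair of libraries held identical values.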

How the data were processed

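The deposited table gives TPM, which the authors made per gene and library, and per the submitters' processing notes they used HISAT2 2.0.5, StringTie 1.3.3, DESeq2 and mm10, in roles not given in the sources used here. Annotation release and strand use are likewise not given there. Per the labels, RNA was extracted with Trizol and libraries made with a TruSeq RNA kit. Each library has nearly the same sum, so depth is unknown and precision was taken from the spread between 3 and 6 libraries.

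From these values, limma 3.58.1 (R 4.3.3; lmFit, eBayes with trend) was run on log2(TPM + 1), two-sided, over 9 libraries and 10049 genes, without a block, and tested on simulated data. Permutation tests, profile distances and figures used Python 3.11.15, scipy 1.17.1 and matplotlib 3.10.9. Positions came from GENCODE M21 and promoters from RefSeq, both on GRCm38, the assembly mm10 denotes. The members and lists were chosen with earlier results of these data known. Named genes were all members, up to 4 genes with the smallest p per list described, the genes of such lists of 5 or fewer, and the 3 nearest profiles per member. Cell type markers had no such rule, and genes named outside it are said to be so in the text. Alternatives were other pseudocounts, filters, scalings, variance models and library weights, each library left out, and the library number as a block. Pair ratios and their alternatives were added after the data were seen.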

Additional observations from a re-analysis of the deposited data

How the results depend on the processing

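Of 22 alternatives, 6 to 8 members rose and 0 fell in each, while 1157 to 1738 of all tested genes rose. These counts of members include Hspb6 and Hspb7 where they passed, which are not counted as support. Hspb6 was not tested with the 5 TPM filter or with libraries 1 to 3 alone, nor Hspb7 with that filter. The count of genes that fell was 625 with libraries 1 to 3 of each group and the replicate block, where 1157 rose. Without the block, the same libraries gave 1318 that rose and 748 that fell. Whether the library numbers pair the samples cannot be decided from correlations of deviations within 3 libraries per group. For the same numbers these were 0.038, 0.002 and 0.107. Replicates 1 and 3 at 0.2 mM were closest to the same number at 0.8 mM, and replicate 2 to replicate 1 (0.061). With the block 7 of 7 tested members rose, beside 1157 of 9397 tested genes. The 7 include Hspb7, which entered only through the 0.8 mM libraries and is not counted as support.

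Hspb6 had a log2 fold change of 0.61 with no filter (adjusted p = 0.0646) and of 0.46 to 0.75 with 1 library left out. Relative to the muscle list, the pseudocount of 0.1 gave -0.071 for Hspb6 and 0.63 for Hspb7, and desmin as the reference gave -0.35 for Hspb8 and -0.38 for Cryab. With 1 library left out, the differences from the list were -0.35 to -0.27 for Hspb1, -0.38 to -0.30 for Hspb2, -0.86 to -0.70 for Hspb6 and -0.78 to -0.66 for Bag3, and none passed (adjusted p of 0.0714 to 0.143) because fewer libraries raise the smallest p. The log2 ratio differences were then 0.63 to 0.78 for Hspb8 to Bag3, 0.23 to 0.37 for Cryab to Hspb2 and 0.59 to 0.85 for Hspb3 to Hspb2. TPM keeps no read numbers, so what depth limits for Hspb6 and Hspb7 cannot be stated.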
